A study of Homo sapiens with 6 samples.

Results

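A set of 45 genes of the mitotic spindle and the kinetochore was taken by name from the 15897 genes listed in the expression table. They were chosen as 45 known genes of mitosis, grouped by role into 6 cyclins, CDK1 and CDC25 phosphatases, 6 mitotic kinases and partners, 7 genes of the spindle checkpoint, the APC/C activator and separase, 11 genes of the centromere and kinetochore, 9 kinesins, 3 genes of the midzone and cytokinesis, and 3 of condensin and topoisomerase. All 45 were listed, and all 45 passed the filter on low values that left 14068 genes for testing.

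RNA of cells labelled H1650, a human lung adenocarcinoma line that is long established, was sequenced in 6 libraries to find genes that differ when SETD2, the enzyme that trimethylates histone H3 at lysine 36, is depleted. The genotype label was wild type in the 3 control libraries and shSETD2 in the other 3. The study's methods describe short hairpin RNAs cloned into the PLKO.1-TRC vector and delivered by lentivirus, but the sources used here do not say whether the 3 libraries labelled shSETD2 came from different hairpins or from repeats of a single one, and they do not name the vector of the control cells. Nothing says that the libraries of a group came from separate cultures, so the p-values measure only the spread between these libraries, which may be technical.

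At the entry into mitosis, CDK1 with a B-type cyclin is switched on when CDC25 phosphatases remove inhibitory phosphates. Aurora and Polo-like kinases, kinesin motors and crosslinkers then build the bipolar spindle, and the NDC80 complex of the outer kinetochore binds its microtubules. The spindle checkpoint holds back the APC/C activator CDC20 until each chromosome is attached, and separase then opens the cohesin rings, after which midzone and cytokinesis proteins divide the cell. Transcription of many of these genes peaks from G2 into mitosis in cycling cells. Complexes with MYBL2 and FOXM1 drive this through a short promoter element called the cell cycle genes homology region, or CHR. Many promoters of these genes also hold another element, the CCAAT box.

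Promoter sequence was available for 39 of the 45 genes in a RefSeq table built on GRCh38.p14, which gives the 250 bases before and the 50 bases after each start. TPX2, AURKA, TTK, BUB3, CENPH and CENPM were without an entry. The CHR was searched as TTTGAA and the CCAAT box as CCAAT, on both strands. Of the 39 genes, 28 (71.8%) held a CHR, against 13.5% of the 10722 genes of the expression table with a promoter entry and 18.2% of all 27303 genes in the promoter table. A CCAAT box was in 31 of the 39 (79.5%), against 43.3% and 39.7%. Both motifs together were in 22 of the 39 (56.4%), against 7.44% and 8.37%. Where a gene had several starts, a motif at any of them was counted, and with the first listed start alone the CHR was in 27 of the 39 (69.2%), against 9.45% and 15.4%. The E2F motif, searched as TTTGGCG and TTTCGCG, was in 5 of the 39 (12.8%), against 6.39% and 3.85%. These are matches of letters, not shown to be bound sites.

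**Figure D1:**
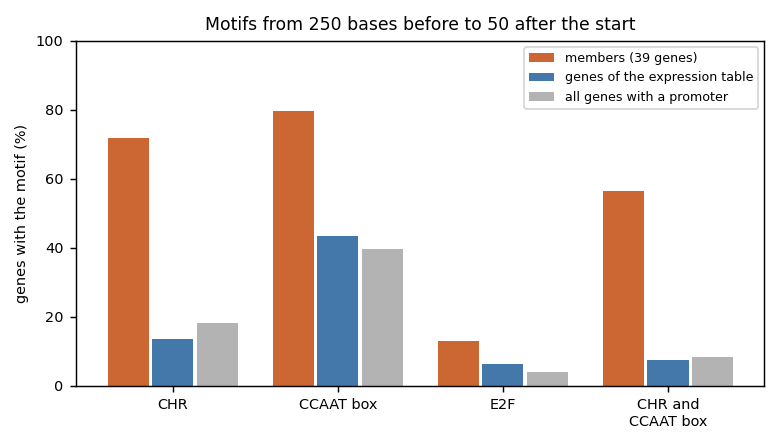
Share of genes, in percent, whose window from 250 bases before to 50 after a start holds the CHR, the CCAAT box, the E2F motif, or the CHR and the CCAAT box together, for the 39 mitotic genes with a promoter entry, the genes of the expression table and all genes of the promoter table. The bar of the mitotic genes is above the other bars for each motif, with 71.8% against 13.5% and 18.2% for the CHR.

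The 200 bases before the first listed RefSeq start are shown for CCNB1, CCNB2, PLK1, CDC20, AURKB and BUB1, to show how the motifs lie in genes of different roles and responses, and for CDC25B and MAD2L1, the mitotic genes with the largest rise and the largest fall. Capitals mark the CHR (TTTGAA or its reverse complement TTCAAA) and the CCAAT box (CCAAT or its reverse complement ATTGG), and each sequence is read 5′ to 3′ on the strand of its gene. Positions are those of the single perfect match of each sequence in GRCh37, the build of the expression table. The starts in that table can lie further upstream: the printed bases of PLK1, AURKB and MAD2L1 are all inside the gene as deposited, and of the others 140 in CCNB1, 68 in CCNB2, 26 in CDC20, 51 in BUB1 and 179 in CDC25B.
CCNB1, chr5:68462777-68462976, plus strand: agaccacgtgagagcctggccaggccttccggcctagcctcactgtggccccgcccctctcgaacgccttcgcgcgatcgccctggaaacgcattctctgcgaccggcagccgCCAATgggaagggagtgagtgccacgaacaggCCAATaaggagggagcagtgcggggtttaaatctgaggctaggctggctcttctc
CCNB2, chr15:59397145-59397344, plus strand: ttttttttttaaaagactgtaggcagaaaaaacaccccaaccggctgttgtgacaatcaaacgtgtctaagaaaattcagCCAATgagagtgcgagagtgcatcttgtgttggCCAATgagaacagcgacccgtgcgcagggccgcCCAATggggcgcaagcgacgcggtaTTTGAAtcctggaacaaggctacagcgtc
PLK1, chr16:23690010-23690209, plus strand: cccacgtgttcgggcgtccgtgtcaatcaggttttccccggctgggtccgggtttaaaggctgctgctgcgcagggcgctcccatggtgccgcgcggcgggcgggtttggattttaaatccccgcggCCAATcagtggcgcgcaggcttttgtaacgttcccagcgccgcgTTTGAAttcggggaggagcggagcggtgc
CDC20, chr1:43824452-43824651, plus strand: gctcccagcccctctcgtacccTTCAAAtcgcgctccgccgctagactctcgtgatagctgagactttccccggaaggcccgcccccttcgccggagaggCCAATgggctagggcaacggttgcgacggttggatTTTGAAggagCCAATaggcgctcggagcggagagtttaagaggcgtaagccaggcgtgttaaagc
AURKB, chr17:8113544-8113743, minus strand: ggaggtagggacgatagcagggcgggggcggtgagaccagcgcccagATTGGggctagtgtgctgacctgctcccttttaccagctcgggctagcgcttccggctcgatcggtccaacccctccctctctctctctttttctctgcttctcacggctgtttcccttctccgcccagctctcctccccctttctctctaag
BUB1, chr2:111435641-111435840, minus strand: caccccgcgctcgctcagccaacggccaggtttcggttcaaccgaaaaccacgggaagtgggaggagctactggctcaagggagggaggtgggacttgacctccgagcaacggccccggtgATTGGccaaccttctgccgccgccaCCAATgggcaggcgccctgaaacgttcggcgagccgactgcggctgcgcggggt
CDC25B, chr20:3767398-3767597, plus strand: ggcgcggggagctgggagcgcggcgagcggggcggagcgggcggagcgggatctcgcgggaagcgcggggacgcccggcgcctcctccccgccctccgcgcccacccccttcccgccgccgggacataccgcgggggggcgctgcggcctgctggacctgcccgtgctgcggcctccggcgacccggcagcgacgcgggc
MAD2L1, chr4:120988004-120988203, minus strand: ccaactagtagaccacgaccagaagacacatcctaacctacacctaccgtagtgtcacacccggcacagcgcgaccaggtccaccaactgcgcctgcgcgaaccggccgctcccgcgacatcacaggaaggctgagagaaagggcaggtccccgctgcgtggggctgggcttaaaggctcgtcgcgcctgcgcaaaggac

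In CCNB2 and PLK1 the CHR began 29 bases before the start, and CDC20 held it at 178 and 65 bases before. CCNB1 held CCAAT boxes at 87 and 55 bases before the start but no CHR in these letters, and CCNB2 held them at 120, 87 and 54. CDC25B and MAD2L1 held neither motif in the printed window, but over the whole searched window and all listed starts MAD2L1 was counted with 1 CHR and 1 CCAAT box and CDC25B with 2 CCAAT boxes.

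The labels were checked against the targeted gene and against cell type markers before any mitotic gene was compared. SETD2 (ENSG00000181555.20_4, chr3:47057919-47205457, minus strand) had 18.0, 10.2 and 17.6 FPKM in the libraries labelled control and 8.97, 8.09 and 12.2 in those labelled shSETD2, so the groups overlapped (log2 fold change -0.58 ± 0.24 SE, limma adjusted p = 0.0641). FPKM, the unit used throughout, scales fragments to the length of a gene and the size of a library. Of 8 lung epithelium markers only NKX2-1 (1.44 to 1.80 FPKM in control, 0 in all 3 shSETD2 libraries) and ABCA3 were listed, with sums of 15.1 to 15.3 against 8.18 to 8.51, and the 8 epithelium markers, 7 of them listed, summed to 14.5 to 16.7 FPKM in control and 404 to 457 in shSETD2 libraries, with KRT7 at 0 to 0.0375 against 77.0 to 87.1. The keratins carried that sum, since CDH1 (mean 1.27 against 0.0120 FPKM) and EPCAM (0.710 against 0.220 FPKM) were lower in shSETD2 libraries. Mesenchymal markers, 5 of 8 listed, summed to 65.1 to 80.7 against 129.1 to 137.8 FPKM through VIM alone, while the means of COL1A1 (2.78 against 0.269 FPKM), COL3A1, LUM and PDGFRB were lower. Blood and immune markers, 1 of 6 listed, summed to 1.01 to 1.305 against 1.35 to 1.62 FPKM. Embryonic kidney markers, all 7 listed, summed to 25.1 to 26.8 against 43.0 to 51.8 FPKM, with SALL1 at 7.09 to 8.01 against 0 and PAX8 at 0 to 0.0368 against 28.1 to 35.2. The marker lists thus differed between the groups, their part in the results below was not tested, and cell identity and the labelled hairpin cannot be told apart in this design. Across the 14068 genes, log2(FPKM + 1) correlated at 0.982 to 0.990 between libraries of the same group and at 0.701 to 0.707 between groups, and 11057 genes (78.6%) passed an adjusted p under 0.05, with 3774 (26.8%) higher in shSETD2 than in control libraries and 7283 (51.8%) lower.

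The mitotic genes were well expressed in all 6 libraries. Their median lay between the 86.5 and 88.9 percentile of all genes tested in each library, and the lowest of them was never below the 52.6 percentile. TOP2A, which relieves the tangling of replicated DNA, was the highest in each library labelled control (98.1 to 99.0 FPKM), and TPX2, which activates AURKA on spindle microtubules, was the highest in each library labelled shSETD2 (149.6 to 150.8 FPKM). Summed over the 45 genes, the level was 1009 to 1036 FPKM in control and 1197 to 1238 FPKM in shSETD2 libraries, or 0.453 to 0.472% against 0.538 to 0.566% of the FPKM of a library. TPX2 (mean 58.1 against 150.2 FPKM) and CDC20 (mean 34.5 against 79.3 FPKM) carried much of that difference, while 18 of the 45 were called lower. In these bulk samples, a different number of cells in mitosis and a different amount of RNA per mitotic cell cannot be told apart.

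**Figure D2:**
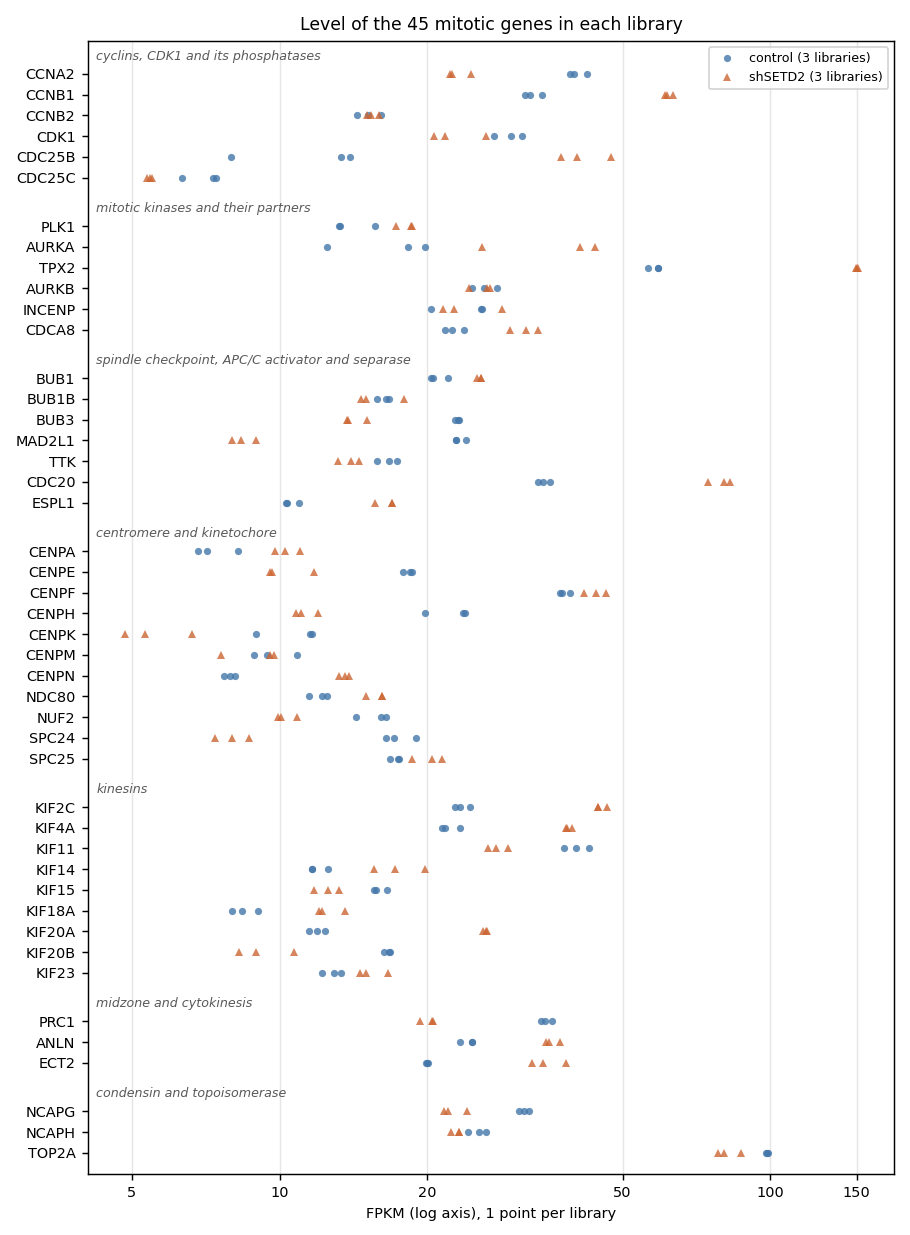
FPKM of the 45 mitotic genes on a log axis, with 1 point per library, circles for the 3 libraries labelled control and triangles for the 3 labelled shSETD2, grouped by role. The groups are apart for 40 genes and overlap for CCNB2, AURKB, INCENP, BUB1B and CENPM.

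Of the 45 genes, 22 were called higher in shSETD2 libraries and 18 were called lower, and 5 were not called (40 also had an unadjusted p under 0.05). The groups did not overlap in the same 22 and 18 genes, against 27.9% of all genes without overlap and higher, 53.0% without overlap and lower, and 80.9% in either direction. The share called in either direction was thus near that of all genes, while more members were higher and fewer lower than among all genes. All genes tested include many at lower FPKM than the members, and this contrast was not matched for level. With a minimum mean FPKM of 5, which all 45 reached, falls outnumbered rises over all genes by less. There 2401 genes were called higher and 3246 lower, and the members stayed at 22 and 18. The median log2 fold change was 0.025 over the 45 genes and -0.29 over all genes tested, and 30 of the 45 lay above the median of all. Median ratio scaling, which sets the typical gene equal between libraries, moved the median of all genes from -0.29 to -0.013. With that scaling 26 of the 45 were higher, 11 lower and 8 not called, and their median was 0.36. Over all 14068 genes tested it gave 5305 higher, 5394 lower and 3369 not called. The share of calls over all genes that were higher moved from 34.1 to 49.6%. In the values as deposited, 26.8% of all genes tested were called higher and 51.8% lower. The counts by role and by motif below are to be read beside these shares. All differences were taken as log2(FPKM + 1), and those of genes at low FPKM are therefore understated.

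Their differences and their spread were smaller than over all genes tested, which include many genes at lower FPKM. No set of genes matched for level was compared. The log2 fold changes of the 45 genes ran from -1.36 for MAD2L1 to 1.78 for CDC25B, and 84.4% of them were within 1 of zero, against 70.0% of all genes tested. Only CDC25B, TPX2, CDC20, AURKA and KIF20A exceeded 1, and only MAD2L1 and SPC24 were below -1. Within a group, their median coefficient of variation was 4.35% in control and 5.42% in shSETD2 libraries, against 7.48 and 8.32% over all genes. CDC25B (27.9%) and AURKA (22.9%) in control, and AURKA (26.4%) in shSETD2 libraries, were the members above 20%.

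**Figure D3:**
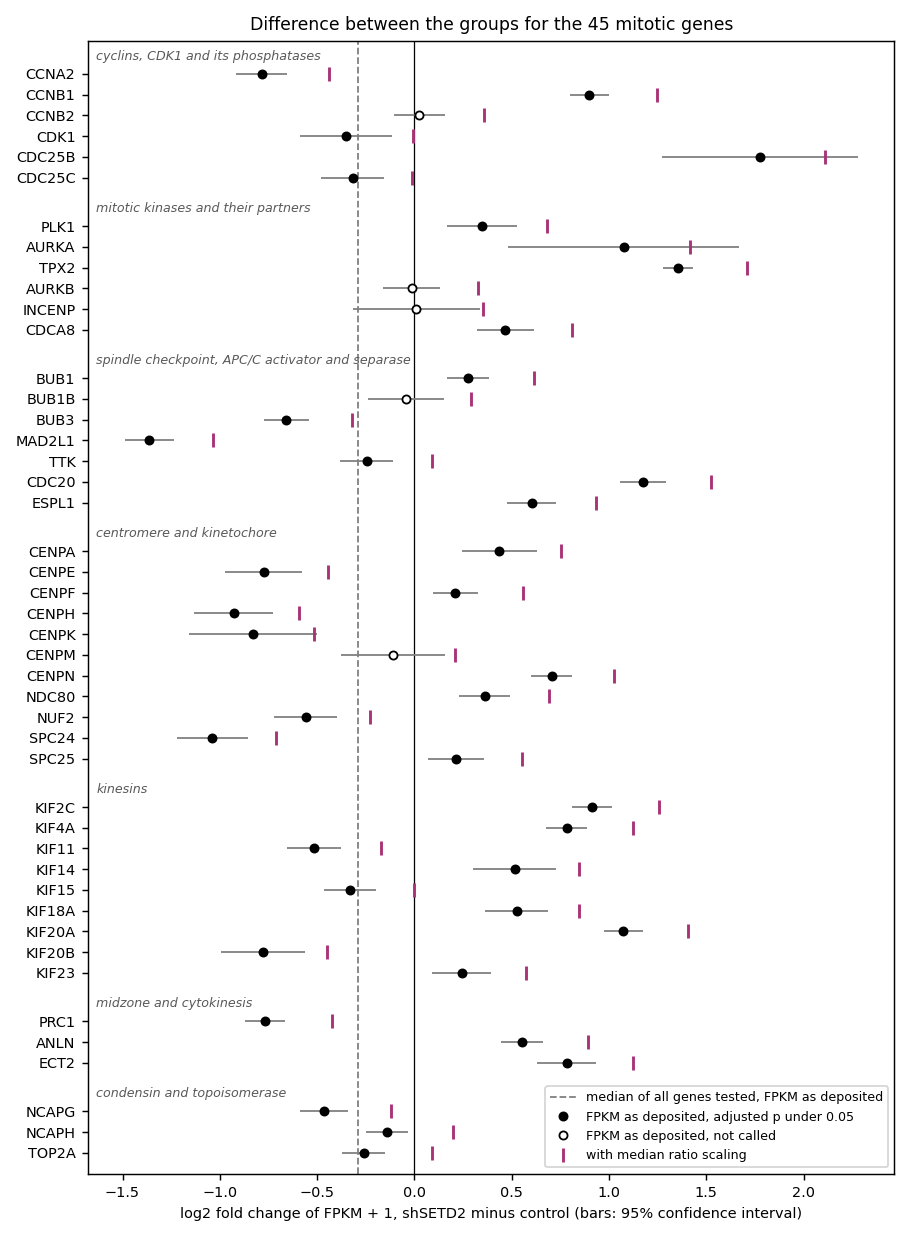
Log2 fold change of FPKM + 1, shSETD2 minus control, of each mitotic gene with its 95% confidence interval (points, filled where the limma adjusted p was under 0.05, n = 3 against 3), and the same difference with median ratio scaling (bars). The dashed line is the median of all genes tested, -0.29, and median ratio scaling moves TTK, KIF15, NCAPH, TOP2A, AURKB, BUB1B and CENPM across zero.

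The cyclins, CDK1 and its activating phosphatases did not move one way: 2 of 6 rose, 3 fell and 1 was not called. CCNB1, the cyclin B that drives CDK1 at mitotic entry, had 31.6, 34.3 and 32.4 FPKM in control and 63.3, 61.7 and 60.9 in shSETD2 libraries. Each library labelled shSETD2 was above each control library, a 1.89-fold rise (log2 fold change 0.90 ± 0.042 SE, adjusted p = 3.10e-06). CCNB2, the cyclin B that is found mostly at the Golgi, had 14.4, 16.1 and 15.1 against 15.1, 15.9 and 15.4 FPKM. Its groups overlapped, and the 95% confidence interval of its difference ran from -0.11 to 0.16, although with median ratio scaling it was called higher by 0.36 (adjusted p = 8.34e-04). CCNA2, the cyclin A of S phase and G2, had 39.1, 42.3 and 39.9 against 22.2, 24.5 and 22.5 FPKM. It fell by 0.78 on the log2 scale (adjusted p = 1.78e-05), opposite to CCNB1, and with median ratio scaling by 0.44.

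CDC25B, the phosphatase that starts CDK1 activation at the centrosome, rose the most of the 45 genes. It had 7.97, 13.9 and 13.3 FPKM in control and 47.4, 40.4 and 37.4 in shSETD2 libraries. The control library 1 was the lowest, and the lowest shSETD2 library was still well above the highest control library (3.56-fold, log2 fold change 1.78 ± 0.21 SE, adjusted p = 2.47e-04). CDC25C, the related phosphatase of full mitotic entry, had 7.32, 6.33 and 7.42 against 5.44, 5.50 and 5.36 FPKM. It was called lower in the values as deposited (-0.32, adjusted p = 4.53e-03), but the difference was -0.010 with median ratio scaling. CDK1 itself had 27.3, 31.2 and 29.7 against 20.6, 26.4 and 21.8 FPKM, and its call (-0.35 ± 0.098 SE, adjusted p = 0.0153) was lost with median ratio scaling (-0.0097), without control library 2 (adjusted p = 0.0540) and without shSETD2 library 3 (adjusted p = 0.0510).

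Of the 6 mitotic kinases and their partners, 4 rose, 0 fell and 2 were not called, and with median ratio scaling 5 rose. TPX2 had 56.3, 58.9 and 58.9 FPKM in control and 151, 149.6 and 150.3 in shSETD2 libraries. Both groups were tight, and the 2.59-fold rise had the smallest adjusted p of the 45 genes (log2 fold change 1.36 ± 0.032 SE, 1.58e-07). AURKA, the spindle pole kinase that TPX2 activates, had 19.8, 18.3 and 12.5 against 25.8, 44.0 and 41.0 FPKM. Its libraries were scattered in both groups, with control library 3 and shSETD2 library 1 low, but did not overlap (2.19-fold, log2 fold change 1.07 ± 0.24 SE, adjusted p = 6.31e-03). PLK1, the Polo-like kinase needed for centrosome maturation and mitotic entry, rose 1.29-fold, from 13.3, 15.6 and 13.2 to 18.6, 17.2 and 18.6 FPKM (adjusted p = 4.56e-03).

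AURKB, INCENP and CDCA8 are the kinase, the scaffold and the borealin subunit of the chromosomal passenger complex, which corrects faulty attachments at the centromere. CDCA8 had 21.8, 22.4 and 23.8 FPKM in control and 33.7, 29.6 and 31.8 in shSETD2 libraries, a 1.40-fold rise without overlap (adjusted p = 4.20e-04). AURKB had 24.7, 27.7 and 26.1 against 26.9, 24.4 and 26.5 FPKM. Its groups overlapped and its difference had a confidence interval from -0.16 to 0.13, and its direction turned with the scaling, from 0.33 with median ratio scaling (adjusted p = 2.63e-03) to -0.22 with quantile normalization (adjusted p = 0.0139). INCENP had 25.9, 25.8 and 20.3 against 22.7, 21.5 and 28.4 FPKM, with an interval from -0.31 to 0.33, so a change of either sign within that interval was not excluded. BIRC5, or survivin, the other subunit of this complex, is no member of the 45 and was called lower, from 12.4 to 8.07 FPKM (means, n = 3).

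The spindle checkpoint and the genes it controls held the largest fall. MAD2L1 encodes MAD2, which binds CDC20 and holds it back from the APC/C. It had 22.9, 24.0 and 22.9 FPKM in control and 8.02, 8.94 and 8.36 in shSETD2 libraries. The difference was a 2.76-fold fall (log2 fold change -1.36 ± 0.052 SE, adjusted p = 1.23e-06), and it was -1.03 with median ratio scaling. CDC20 had 33.6, 35.6 and 34.4 against 82.8, 74.8 and 80.3 FPKM, a 2.30-fold rise (log2 fold change 1.18 ± 0.049 SE, adjusted p = 1.84e-06). The inhibitor and its target were thus on opposite sides. ESPL1, or separase, the protease that cuts cohesin at anaphase, rose 1.57-fold, from 10.5 ± 0.378 to 16.5 ± 0.761 FPKM (mean ± SD, n = 3).

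Within the checkpoint kinases and scaffolds the differences were smaller. BUB3, which docks BUB1 and BUB1B at kinetochores, had 22.8, 23.2 and 23.1 against 13.8, 15.1 and 13.8 FPKM, a 1.62-fold fall (adjusted p = 2.39e-05). BUB1, a checkpoint kinase, had 22.1, 20.5 and 20.4 against 25.3, 25.8 and 25.7 FPKM and was called higher by 0.28 (adjusted p = 1.24e-03), a call lost with quantile normalization (0.11). TTK, the kinase MPS1 that starts the checkpoint, was called lower with a difference of -0.25 (15.8, 17.4 and 16.8 against 13.2, 14.5 and 14.0 FPKM, adjusted p = 6.30e-03), but was at 0.088 with median ratio scaling. BUB1B, or BUBR1, a part of the complex that inhibits the APC/C, was not called at 16.5, 15.8 and 16.7 against 14.6, 18.0 and 15.0 FPKM. Its shSETD2 library 2 was the highest of the 6, and without it BUB1B was called lower (-0.13, adjusted p = 0.0390), whereas with median ratio scaling it was called higher (0.29, adjusted p = 0.0143).

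Of the 11 genes of the centromere and kinetochore, 5 rose, 5 fell and CENPM was not called, with the same counts under median ratio scaling. Subunits of 1 complex moved in opposite directions. NDC80, NUF2, SPC24 and SPC25 form the NDC80 complex, a rod with 1 copy of each that grips microtubules at the NDC80 and NUF2 end and anchors to the kinetochore at the SPC24 and SPC25 end. NDC80 had 12.5, 11.5 and 12.2 FPKM in control and 16.2, 16.2 and 15.0 in shSETD2 libraries, and rose by 0.36 ± 0.053 SE (adjusted p = 8.06e-04). SPC24 had 19.0, 17.2 and 16.5 against 8.67, 7.39 and 8.01 FPKM, a 2.18-fold fall (log2 fold change -1.04 ± 0.075 SE, adjusted p = 2.39e-05). NUF2 had 16.1, 16.5 and 14.3 against 10.8, 10.1 and 9.92 FPKM, a 1.52-fold fall (adjusted p = 2.71e-04). All 3 kept direction and call with median ratio and quantile scaling. SPC25 was called higher at 17.5, 16.8 and 17.5 against 20.5, 21.5 and 18.6 FPKM (0.21 ± 0.059 SE, adjusted p = 0.0150), a call lost with quantile normalization (0.10) and without control library 2 (adjusted p = 0.0501).

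CENPH, CENPK, CENPM and CENPN belong to the constitutive centromere network, which sits on chromatin with CENPA, the histone H3 variant that marks the centromere. CENPH had 23.9, 19.8 and 23.6 against 11.1, 12.0 and 10.8 FPKM, a 1.99-fold fall (adjusted p = 6.87e-05). CENPK had 8.97, 11.6 and 11.6 against 4.84, 6.63 and 5.32 FPKM, a 1.91-fold fall (adjusted p = 1.29e-03). These partners in the same subcomplex, which also holds CENPM, both fell, while CENPN, which reads CENPA in the nucleosome, rose 1.71-fold from 7.91, 8.13 and 7.72 to 13.8, 13.2 and 13.6 FPKM (adjusted p = 1.13e-05). CENPA rose 1.40-fold, from 6.82, 8.23 and 7.13 to 10.3, 9.77 and 11 FPKM (adjusted p = 2.18e-03). CENPM overlapped between the groups at 8.88 to 10.9 against 7.59 to 9.72 FPKM, with an interval of the difference from -0.38 to 0.16, and its sign turned with median ratio scaling (0.21). Of the outer fibrous corona, the kinesin CENPE fell 1.77-fold, from 18.5, 18.6 and 17.8 to 9.63, 11.7 and 9.57 FPKM (adjusted p = 1.43e-04). CENPF, its large coiled-coil partner, was called higher by 0.21 (37.3, 37.6 and 39.1 against 41.8, 46.4 and 44.2 FPKM, adjusted p = 6.59e-03) but was at -0.061 with quantile normalization.

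Of the 9 kinesins, the microtubule motors of the spindle, 6 rose and 3 fell, with a median of 0.51, and with median ratio scaling 6 rose and 2 fell. KIF20A, or MKLP2, which carries the passenger complex to the midzone, had 11.5, 12.4 and 11.9 FPKM in control and 26.4, 25.9 and 26.4 in shSETD2 libraries. It rose 2.20-fold (log2 fold change 1.07 ± 0.042 SE, adjusted p = 1.44e-06). Its paralogue KIF20B went the other way, from 16.8, 16.4 and 16.7 to 8.26, 10.7 and 8.94 FPKM, a 1.79-fold fall (adjusted p = 2.20e-04). KIF2C, or MCAK, which depolymerizes microtubules at the centromere, rose 1.92-fold from 23.5 ± 0.848 to 45.2 ± 1.18 FPKM, and KIF4A, a chromosome-bound motor of the midzone, rose 1.75-fold from 22.2 ± 1.03 to 38.8 ± 0.521 FPKM (mean ± SD, n = 3). The groups of both were far apart relative to their spread. KIF11, or Eg5, the tetrameric motor that pushes the spindle poles apart, had 40.1, 42.6 and 37.9 against 26.6, 29.2 and 27.6 FPKM and fell 1.45-fold (adjusted p = 2.03e-04). KIF15, the motor that can keep the poles apart alongside KIF11, was called lower in the values as deposited (-0.33, 15.6 to 16.6 against 11.7 to 13.2 FPKM), but its difference was 0.00033 with median ratio scaling. KIF18A, which dampens chromosome movements, KIF14, a motor of cytokinesis, and KIF23, or MKLP1, the motor of the centralspindlin complex, rose by 0.53, 0.51 and 0.24 on the log2 scale, and stayed higher under the scalings tried.

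The midzone and cytokinesis genes split too. ECT2, the exchange factor that turns on RhoA at the division furrow, had 19.9 to 20.1 FPKM in the 3 control libraries and 32.6, 38.3 and 34.5 in shSETD2 libraries, a 1.76-fold rise (adjusted p = 3.70e-05). ANLN, or anillin, a scaffold of the contractile ring, had 24.6, 23.3 and 24.6 against 34.9, 37.4 and 35.5 FPKM, a 1.48-fold rise (adjusted p = 3.96e-05). PRC1, which bundles antiparallel microtubules in the midzone and is a partner of KIF4A, had 34.8, 34.0 and 35.8 against 20.4, 19.3 and 20.6 FPKM. It fell 1.73-fold (adjusted p = 6.79e-06), where KIF4A rose.

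The condensin subunits and TOP2A, which shape mitotic chromosomes, were all 3 called lower in the values as deposited, as were 51.8% of all genes tested. With median ratio scaling NCAPH turned to a higher call and TOP2A to a positive difference. NCAPG had 32.3, 31.5 and 30.8 against 22.1, 24.1 and 21.6 FPKM (log2 fold change -0.47 ± 0.051 SE, adjusted p = 1.89e-04), and with median ratio scaling the difference was -0.12 (adjusted p = 0.0581). NCAPH had 25.5, 26.4 and 24.3 against 22.4, 23.2 and 23.2 FPKM. Its small difference of -0.14 (adjusted p = 0.0251) missed the threshold when control library 1 or 2, or shSETD2 library 1 or 3, was left out (adjusted p = 0.0636, 0.0733, 0.0776 and 0.0506), and it was 0.20 with median ratio scaling. TOP2A had 98.6, 98.1 and 99.0 against 78.4, 87.3 and 80.6 FPKM, and its difference was -0.26 as deposited and 0.090 with median ratio scaling.

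Ratios of members that share a complex or are paralogues were compared within each library, where the scaling of a library has no effect. The pairs were chosen with earlier results of these data known. Each ratio restates the levels of 2 genes given above, so it adds no separate evidence. Of 9 such pairs, 8 did not overlap between the groups, where 80.9% of all single genes did not overlap either and no share over other pairs was computed. SPC24 was 1.52, 1.49 and 1.35 times NDC80 in control and 0.536, 0.457 and 0.535 times in shSETD2 libraries, a difference of -1.51 on the log2 scale. KIF20B was 1.46, 1.32 and 1.40 times KIF20A in control and 0.314, 0.413 and 0.338 times in shSETD2 libraries, the largest difference of the 9 at -1.98. In both pairs the order of the genes was opposite in the groups, in each of the 6 libraries. AURKB went from 1.24, 1.52 and 2.09 times AURKA to 1.04, 0.553 and 0.647 times (-1.13). CCNB2 went from 0.454, 0.470 and 0.467 times CCNB1 to 0.238, 0.259 and 0.253 times (-0.89). CCNB2 was thus the lower of the B-type cyclins in all 6 libraries, and more so in those labelled shSETD2. NUF2 to NDC80 differed by -0.99, BUB1B to BUB1 by -0.33, SPC25 to NDC80 by -0.16, and NCAPH to NCAPG by 0.34. INCENP to CDCA8 overlapped (-0.47, two-sided exact permutation p = 0.2). For the other 8 the two-sided exact permutation p was 0.1, the smallest that 3 against 3 libraries allow, and 0.113 adjusted over the 9 pairs, so the design cannot bring any of them under 0.05.

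**Figure D4:**
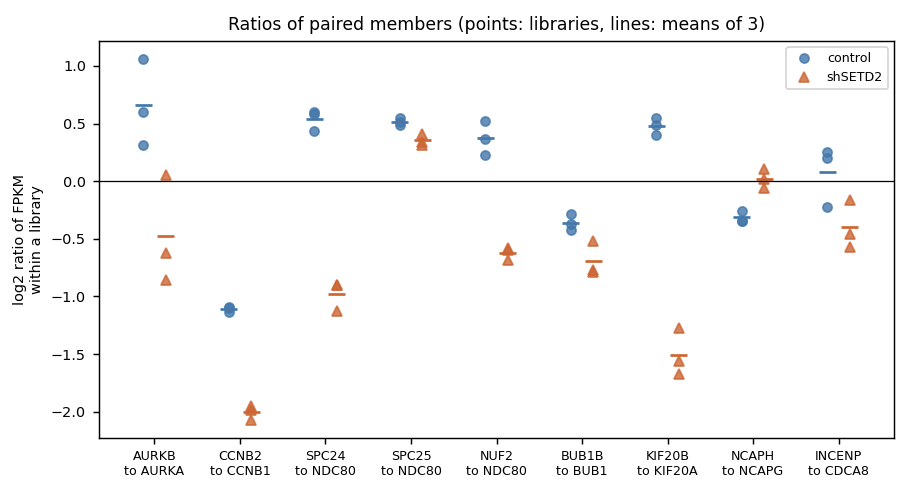
Log2 ratio of FPKM of 2 members within a library, for 9 pairs, with a point per library (circles control, triangles shSETD2) and a line at the mean of 3. All pairs except INCENP to CDCA8 are apart between the groups, most of all KIF20B to KIF20A (-1.98) and SPC24 to NDC80 (-1.51), and SPC25 to NDC80 the least (-0.16).

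The direction of the members went with the chromosome on some chromosomes and not on others. CDC25B, TPX2 and AURKA are all on chromosome 20, the chromosome with the highest median of all genes tested (0.40 over 372 genes, with 57.3% higher), and all 3 rose. Chromosome 4 had a median of -0.65 over 491 genes, with 69.2% lower, and its 4 members CCNA2, MAD2L1, CENPE and NCAPG all fell. On chromosome 10 the median was -0.51 over 537 genes, with 63.7% lower, and CDK1, BUB3, KIF11 and KIF20B all fell, CDK1 at a difference of -0.0097 with median ratio scaling. On chromosome 1 the median was -0.34, yet 5 of 6 members rose (CDCA8, CDC20, CENPF, KIF2C and KIF14) and NUF2 fell, with CENPF turning to -0.061 under quantile normalization. Chromosome 15 had a median of -0.56, and of its 4 members 1 rose, 1 fell and 2 were not called. On chromosome X (median -0.54) the only member, KIF4A, rose. On chromosome 3 (median -0.41) ECT2 rose and KIF15 fell in the values as deposited. The part of chromosome position in these differences was not tested.

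Members that lie near each other on a chromosome could still differ. On chromosome 5, CCNB1 (chr5:68462837-68474072) and CENPH (chr5:68485375-68506184) are both on the plus strand with 11302 bases between them, and CCNB1 rose while CENPH fell. KIF20A (chr5:137514408-137523404, plus strand) and CDC25C (chr5:137620954-137674044, minus strand) are 97549 bases apart, and KIF20A rose while CDC25C fell in the values as deposited and was at -0.010 with median ratio scaling. KIF20A and CDC25C are not adjacent genes, since the listed gene CDC23 lies between them. CENPK, on the same chromosome, fell like its partner CENPH.

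**Figure D5:**
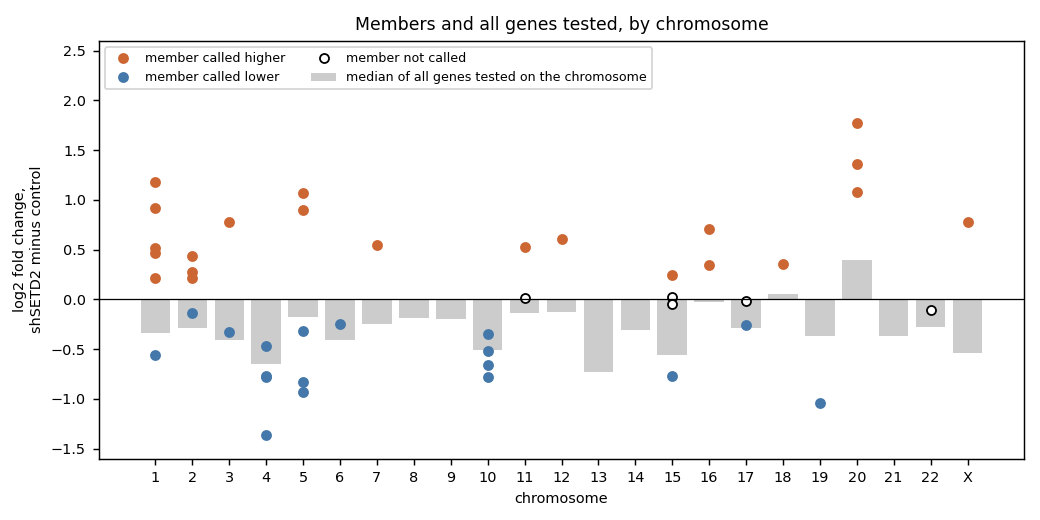
Log2 fold change, shSETD2 minus control, of each mitotic gene as deposited (points, coloured by call at a limma adjusted p under 0.05) over the median of all genes tested on its chromosome (bars), by chromosome. The members on chromosome 20 are all above zero (bar at 0.40) and those on chromosomes 4 and 10 all below (bars at -0.65 and -0.51), of which CDK1 is at -0.0097 with median ratio scaling.

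Members with and without the promoter motifs described above were found in both directions. Of the 28 with a CHR, 15 rose, 10 fell and 3 were not called (median 0.21), and of the 11 without one, 5 rose, 5 fell and 1 was not called (median -0.014). Of the 31 with a CCAAT box, 17 rose, 11 fell and 3 were not called, and of the 8 without one, 3 rose, 4 fell and 1 was not called. CCNB2, PLK1 and CDC20, each with both motifs in the printed window, had differences of 0.025, 0.35 and 1.18.

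Within a group, the members also leaned to 1 library. Control library 2 was the highest of its group for 22 of the 45 genes (48.9%), against 34.7% of all genes tested, and shSETD2 library 2 for 25 (55.6%), against 36.5%. CCNA2, CDK1, CENPE, KIF20B and TOP2A were among those highest in shSETD2 library 2 of their group. The same libraries were also the lowest of their group for some members. Control library 2 was so for 11 (24.4%), against 30.6% of all genes tested, and shSETD2 library 2 for 15 (33.3%), against 34.8%. Without shSETD2 library 2 the median of the 45 genes was 0.087 in place of 0.025. That median is the value of a single middle gene, INCENP in place of CCNB2, so its move does not measure the lean.

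Another 109 genes of mitosis, listed by role beside the 45, were tested in the same fit, and 30 rose, 52 fell and 27 were not called, with a median of -0.21. Their shares of rises and falls as deposited were near those of all genes (26.8 and 51.8%). With median ratio scaling 48 rose and 29 fell, against 5305 and 5394 of all 14068 genes. The counts of the smaller lists within them are to be read beside these values. Among 26 other genes of the kinetochore and of CENPA deposition, 4 rose and 14 fell, and with median ratio scaling 6 rose and 10 fell. HJURP, the chaperone that loads CENPA, rose with wide scatter, at 13.3, 5.59 and 14.5 FPKM in control and 20.2, 49.4 and 51.1 in shSETD2 libraries (log2 fold change 1.75 ± 0.47 SE, adjusted p = 0.0124). SKA1, a microtubule coupler of the outer kinetochore, rose by 1.56, and CENPI by 0.27. CENPU, CENPC and NSL1, which link the inner centromere to the outer kinetochore, fell by 1.35, 1.21 and 1.20.

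Among 22 other genes of the checkpoint and the APC/C, 4 rose and 15 fell, and with median ratio scaling 9 rose and 6 fell. TRIP13, the ATPase that takes MAD2 out of its active form, rose by 1.22, UBE2C, a ubiquitin-conjugating enzyme of the APC/C, by 0.83, and MAD2L1BP, an adaptor of TRIP13, by 0.38. The APC/C subunits CDC23 and ANAPC10 fell by 0.84 and 0.78, and its inhibitor FBXO5 by 0.81. TRIP13 and MAD2L1BP were thus higher where MAD2L1 was lower, and a link between these differences was not tested. Of 17 other cohesin and condensin genes, 5 rose and 8 fell, and with median ratio scaling 8 rose and 5 fell. The condensin subunits SMC2 and NCAPD2 rose by 0.42 and 0.35, the latter not called with quantile normalization, while SMC4 and NCAPD3 fell by 0.95 and 0.65, and the cohesin subunit STAG2 fell by 1.11 and the cohesin regulator PDS5A rose by 0.32.

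Of 17 other genes of the spindle and cytokinesis, 8 rose and 4 fell, and with median ratio scaling 11 rose and 3 fell. CEP55, a scaffold of abscission, KIFC1, a minus-end kinesin, and RACGAP1, the partner of KIF23 in centralspindlin, rose by 1.04, 0.80 and 0.72. CKAP2, a spindle protein, KIF22, a chromosome-bound kinesin, and BIRC5 fell by 1.14, 0.71 and 0.56. Of 14 other mitotic kinases and CDK1 regulators, 5 rose and 8 fell, and with median ratio scaling 6 rose and 3 fell. The share of falls as deposited was near that of all genes tested (51.8%). CDC25A, the third phosphatase of the CDC25 family and one that also acts at the start of S phase, fell 4.98-fold, from 42.9 ± 0.502 to 8.62 ± 0.122 FPKM (mean ± SD, n = 3, adjusted p = 4.72e-08), where CDC25B rose. NEK9, a kinase upstream of NEK6 and NEK7, fell by 1.81, while NEK6 and NEK7 each rose by 0.49. GTSE1, which binds microtubules, rose by 0.91, and BORA, which helps AURKA activate PLK1, fell by 1.01.

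The transcriptional regulators of mitotic genes were split, with 4 of 13 higher, 3 lower and 6 not called, and 8 higher and 2 lower with median ratio scaling. MYBL2, a subunit of the complex that drives genes with a CHR, had 75.7, 79.8 and 83.9 FPKM in control and 116, 105 and 112 in shSETD2 libraries, a 1.39-fold rise (adjusted p = 2.28e-04). FOXM1 had 21.4, 10.3 and 10.6 against 12.4, 11.7 and 12.9 FPKM. Its control library 1 was the highest of the 6, the groups overlapped, and its difference of -0.10 ± 0.26 SE (adjusted p = 0.734, interval from -0.74 to 0.54) could not be told from 0. E2F7, a repressor of E2F targets, rose by 1.25 and RBL1, or p107, by 0.30. LIN9 and LIN54, subunits of the complex that binds the CHR, fell by 1.04 and 0.72, and TFDP1, the partner of E2F proteins, by 0.21, a call that was lost with median ratio scaling (0.13).

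Of the 45 genes, 14 share bases with another listed gene, and the sources used here do not say whether strand was used in counting, although the labels name a stranded kit. CENPA, CENPN and KIF15 overlap a gene on their own strand, of which SLC35F6 shares 16943 bases with CENPA and had a mean of 10.7 FPKM, and reads in the shared bases cannot be assigned to 1 of the genes. Of the 12 with a gene on the opposite strand, CDC25C shares 6421 bases with FAM53C (mean 12.2 FPKM) and KIF20A shares 68 with CDC23.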

How the data were processed

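RNA-seq of 6 libraries (3 control, 3 shSETD2) was analysed from the deposited FPKM values, which the authors obtained by mapping reads to hg19 (GRCh37) with HISAT2, both named in the submitters' processing notes, and by quantification with Ballgown, named in the study's methods. Tool versions, and how genes were selected for the table, are not given in the sources used here. FPKM keeps no depth: read numbers are unknown, and precision comes only from the spread over 3 libraries. A second deposited table repeats the FPKM and adds group means of log2(FPKM + 1), fold changes, p-values and q-values of the authors' own comparison, and was not used.

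The 14068 genes whose mean FPKM reached 0.5 were compared on log2(FPKM + 1), a pseudocount of 1, by limma 3.58.1 in R 4.3.3 (lmFit, then eBayes with trend), and p-values were adjusted by the Benjamini-Hochberg method across these genes, with 0.05 as the threshold. The script was tested on simulated data. Ratios of members were compared by exact permutation tests over libraries. Alternatives were pseudocounts of 0.1 and 0.01, no filter or a minimum of 5, upper quartile, median ratio and quantile scaling, no trend, a replicate block, and each library left out. Promoters came from RefSeq, and their positions from a search of GRCh37. Tables and figures were made in Python 3.11.15 with pandas 2.3.3, scipy 1.17.1 and matplotlib 3.10.9.

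The 45 members, the other lists and the pairs were chosen with earlier results of these data known. The text names all members, up to 3 genes in each direction of every other list by the size of their called difference, SETD2, FOXM1, MYBL2, and markers where a list is described. Promoters are shown for 6 members chosen for their motifs and for the largest rise and fall.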

Additional observations from a re-analysis of the deposited data

How the results depend on the processing

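Under 15 alternatives, 30 of the 40 called members (19 higher, 11 lower) kept their direction and call in every one, and 5 called members changed direction in at least 1. With a minimum mean FPKM of 5, fewer genes were tested and 5647 were called (2401 higher, 3246 lower), and no member's call changed. With median ratio scaling, 11 members were lower and the member median was 0.36, and the signs turned for AURKB (0.33), BUB1B (0.29), CENPM (0.21), NCAPH (0.20), TOP2A (0.090), TTK (0.088) and KIF15 (0.00033). Quantile normalization turned CCNB2 (-0.020), INCENP (-0.16) and CENPF (-0.061), and upper quartile scaling AURKB (0.036) and BUB1B (0.0051). The cause of these turns was not tested. With each library left out in turn, the member median was 0.022 to 0.087, the latter without shSETD2 library 2, and the genes whose sign turned ran from -0.013 to 0.066 (CCNB2), -0.054 to 0.028 (AURKB), -0.11 to 0.087 (INCENP) and -0.13 to 0.0091 (BUB1B). The replicate numbers do not pair the libraries (correlations of deviations -0.024, 0.018 and -0.0077 for the same number), and a fit with the replicate number as a block called 10976 genes and the same counts of 22 and 18 members. Read depth is unknown from FPKM, 3 libraries a group limit every test, and the groups differ in cell type markers.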
